A study of Mus musculus with 16 samples.

Results

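Transaminases and other enzymes that handle amino nitrogen were followed in perfused mouse livers with and without the kinase GCN2. The 9 genes were Gpt, Gpt2, Got1, Got2, Agxt, Oat, Glud1, Glul and Aass, taken by name. They were measured by 18 of the 45101 probe sets on the array, and all 9 were among the 10916 genes tested of 18193 with a symbol. Livers of global Gcn2-/- mice and of their Gcn2+/+ littermates, 3 to 6 months old, were perfused in a single pass with complete amino acids (+Met) or with medium from which methionine was left out (−Met). RNA came either from the detergent supernatant of the homogenate (unfractionated) or from the polysome fraction of a sucrose gradient of that supernatant. This gave 8 groups with 2 Affymetrix arrays each, 16 in all, and each array carried RNA pooled from 2 livers. The deletion is in every cell of the animal, and the perfused liver holds its other cell types beside hepatocytes. The labels call the 2 arrays of a group biological replicates but do not say whether their pools share livers, so p-values here measure only the spread between these arrays.

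Aminotransferases pass the amino group of one amino acid to the keto acid of another, most often with glutamate and 2-oxoglutarate as the second pair. Glutamate dehydrogenase releases that nitrogen as ammonia, which the liver turns into urea, and glutamine synthetase fixes ammonia as glutamine. GCN2 is a kinase that senses uncharged transfer RNA when an amino acid runs short and phosphorylates the initiation factor eIF2, which lowers translation in general and raises that of the transcription factor ATF4. ATF4 acts with C/EBP proteins at composite elements in target genes such as Asns, which makes asparagine.

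The targeted gene, named Eif2ak4 in the annotation, had a signal of 62.9 to 103.5 in the 8 wild-type arrays and of 21.2 to 52.9 in the 8 knockout arrays. The groups did not overlap, and the labels do not say where the deletion lies relative to this probe set. Replicate arrays correlated at 0.968 to 0.976 over the tested genes on the log2 scale. All arrays had the same trimmed mean signal of 150.0, so a polysome value is relative to the other RNAs in the polysome fraction and not an amount of RNA loaded. In bulk liver RNA, fewer cells of a type and less RNA per cell cannot be told apart. Hepatocyte markers summed to signals of 79690 to 114699 in every array, with 8 of 8 measured, and of 5 skeletal muscle markers Ckm, Myh4, Tnnt3 and Myl1 were too dim to test.

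Of the 9 promoters, 8 were matched in RefSeq (build GRCm38.p6, 250 bases before to 50 bases after the start). They are shown because GCN2 acts through ATF4, and the C/EBP-ATF composite element searched on both strands was TGATGNAAN. It was found in 3.95% of 32851 promoters. Got1 was the one member whose promoter held it, on the reverse strand 103 bases before the start. Asns, the reference gene for this pathway, held it 23 bases before the start. The 2 windows follow, with the match in capitals, and after them the Gpt2 promoter, shown because Gpt2 was the member that differed between the genotypes.
Asns, chr6:7693212-7693244, minus strand: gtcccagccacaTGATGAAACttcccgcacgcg
Got1, chr19:43524688-43524720, minus strand: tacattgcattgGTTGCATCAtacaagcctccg
Gpt2, chr8:85492326-85492625, plus strand: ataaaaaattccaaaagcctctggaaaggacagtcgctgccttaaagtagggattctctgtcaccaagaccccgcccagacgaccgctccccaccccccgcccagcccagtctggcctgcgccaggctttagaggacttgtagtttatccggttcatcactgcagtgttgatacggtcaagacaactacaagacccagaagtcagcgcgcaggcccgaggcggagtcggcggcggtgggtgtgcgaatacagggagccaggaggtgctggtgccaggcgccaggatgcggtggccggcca
The Gpt2 window is in lower case throughout because it held no match to these letters. The cyclic AMP response element TGACGTCA, present in 1.79% of the promoters, was in none of the 8. A match is a description of letters and not a binding site, and the absence of one says nothing about the factor.

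Gpt2, the mitochondrial alanine aminotransferase that links alanine to pyruvate, was lower in knockout livers. In unfractionated RNA its signals were 1725 and 1296 in wild-type +Met, 1027 and 852 in wild-type −Met, 793 and 850 in knockout +Met, and 1196 and 868 in knockout −Met. In polysome RNA they were 2105 and 1686 in wild-type +Met, 1657 and 1467 in wild-type −Met, 1009 and 1092 in knockout +Met, and 1188 and 989 in knockout −Met. All 4 knockout polysome arrays lay below all 4 wild-type ones, as did those of 4.15% of all tested genes, while the unfractionated arrays of the genotypes overlapped. Averaged over medium and fraction, Gpt2 fell by 0.52 ± 0.10 on the log2 scale (SE, limma, 8 arrays against 8, 95% interval −0.73 to −0.31), 0.697 times the wild-type level, with an adjusted p of 0.0063. The values are differences of log2(signal + 16), and a gene was called at an adjusted p under 0.05, with the Benjamini-Hochberg adjustment over all tested genes. Of all tested genes 4.2% were called in this comparison, 2.17% as lower. The fit takes all arrays as independent. Equal replicate numbers in the 2 fractions were taken as 1 liver pool, which the labels do not state. With the pool as a random block Gpt2 had the same difference with an SE of 0.11 (limma adjusted p = 0.011).

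The Gpt2 estimates differed among the 4 settings, but the tests of a difference between settings did not pass. These had limma adjusted p of 0.55 and 0.75 for medium, in unfractionated and polysome RNA, and of 0.68 for fraction. In 4 comparisons chosen after seeing the data, knockout minus wild-type was −0.85 in unfractionated +Met RNA (adjusted p = 0.091), −0.83 in polysome +Met RNA (adjusted p = 0.12) and −0.52 in polysome −Met RNA (adjusted p = 0.14), by limma with an SE of 0.20 each. In unfractionated −Met RNA it was +0.12 ± 0.20 (limma adjusted p = 0.97), so its sign there is not settled. These comparisons and the next ones took their spread from the fit of all 16 arrays. Over the +Met arrays alone Gpt2 had −0.84 ± 0.14 (limma adjusted p = 0.0040). Over the −Met arrays alone it had −0.20 ± 0.14, which did not pass (adjusted p = 0.51). Over the polysome arrays alone it was −0.68 ± 0.14 (adjusted p = 0.014), and over the unfractionated arrays alone −0.37 ± 0.14 (adjusted p = 0.43).

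**Figure D1:**
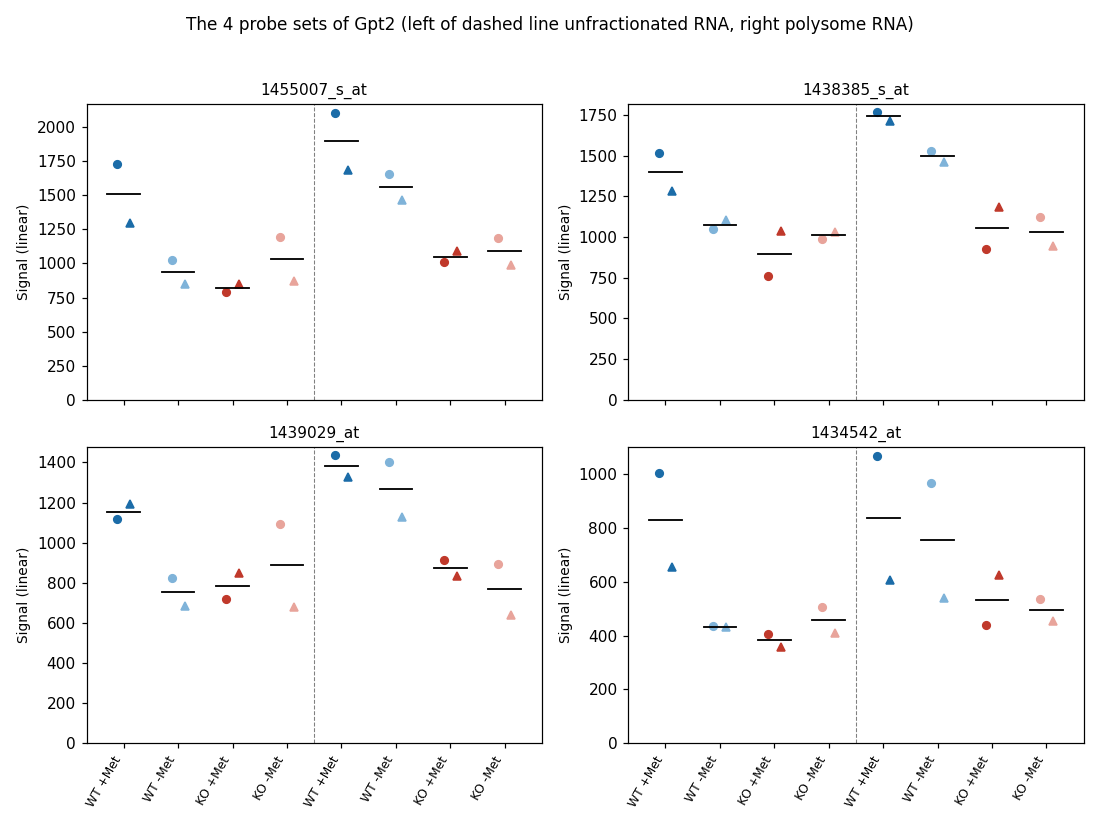
Linear array signal of each of the 4 Gpt2 probe sets in the 16 arrays, by genotype (WT or KO), medium and fraction, with replicate 1 as circles, replicate 2 as triangles and the group mean as a line. The wild-type +Met group has the highest mean of its fraction in all 4 probe sets, and in polysome RNA 1455007_s_at runs from 989 to 1188 in the knockout and from 1467 to 2105 in the wild-type.

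Gpt2 was measured by 4 probe sets, which allows a check within the gene. The bright probe set used for the gene, 1455007_s_at, correlated at 0.901 to 0.907 with the other 3 over the 16 arrays, which is a description of probe sets on the same arrays. In a limma fit over 18423 single probe sets, 3 of the 4 were called lower in the knockout. The differences were −0.52 ± 0.10 for 1455007_s_at (adjusted p = 0.0070), −0.50 ± 0.09 for 1438385_s_at (adjusted p = 0.0049) and −0.43 ± 0.11 for 1439029_at (adjusted p = 0.042). The fourth, 1434542_at, had −0.53 ± 0.15 and did not pass (adjusted p = 0.062). In polysome RNA all 4 knockout arrays lay below all 4 wild-type arrays for 3 of the probe sets, the exception being 1434542_at. In unfractionated RNA this was so for 1 probe set, 1438385_s_at, with 758 to 1038 in the knockout and 1046 to 1517 in the wild-type.

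The other 8 enzymes did not pass the test between genotypes. Oat, the mitochondrial ornithine aminotransferase, came nearest at −0.26 (95% interval −0.47 to −0.04, limma adjusted p = 0.19). Without the first knockout −Met polysome array it was called (−0.35, adjusted p = 0.021), and without the second it had −0.16 and did not pass. Gpt, the cytosolic alanine aminotransferase, had −0.14 with an interval of −0.48 to 0.20. Got1 and Got2, the cytosolic and mitochondrial aspartate aminotransferases of the malate-aspartate shuttle, had 0.08 (−0.22 to 0.38) and −0.13 (−0.32 to 0.06). Agxt, which turns glyoxylate into glycine, had −0.14 (−0.36 to 0.07). Glud1, glutamate dehydrogenase, had 0.02 (−0.22 to 0.26), and Glul, glutamine synthetase of the hepatocytes around the central vein, had −0.07 (−0.26 to 0.12). Aass, which starts lysine breakdown, had −0.11 (−0.40 to 0.18). These intervals bound the difference and do not show that the genotypes were alike. A second, dim Gpt probe set, 1453216_at, with signals of 13.8 to 104, was called higher in the knockout (0.65 ± 0.16, limma adjusted p = 0.038), unlike the bright one. A second Got2 probe set, 1417716_at, ran from 522 to 728 in knockout and from 851 to 996 in wild-type polysome RNA, without overlap. Its unfractionated signals overlapped and it was not called, and the polysome signals of the bright Got2 probe set overlapped.

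**Figure D2:**
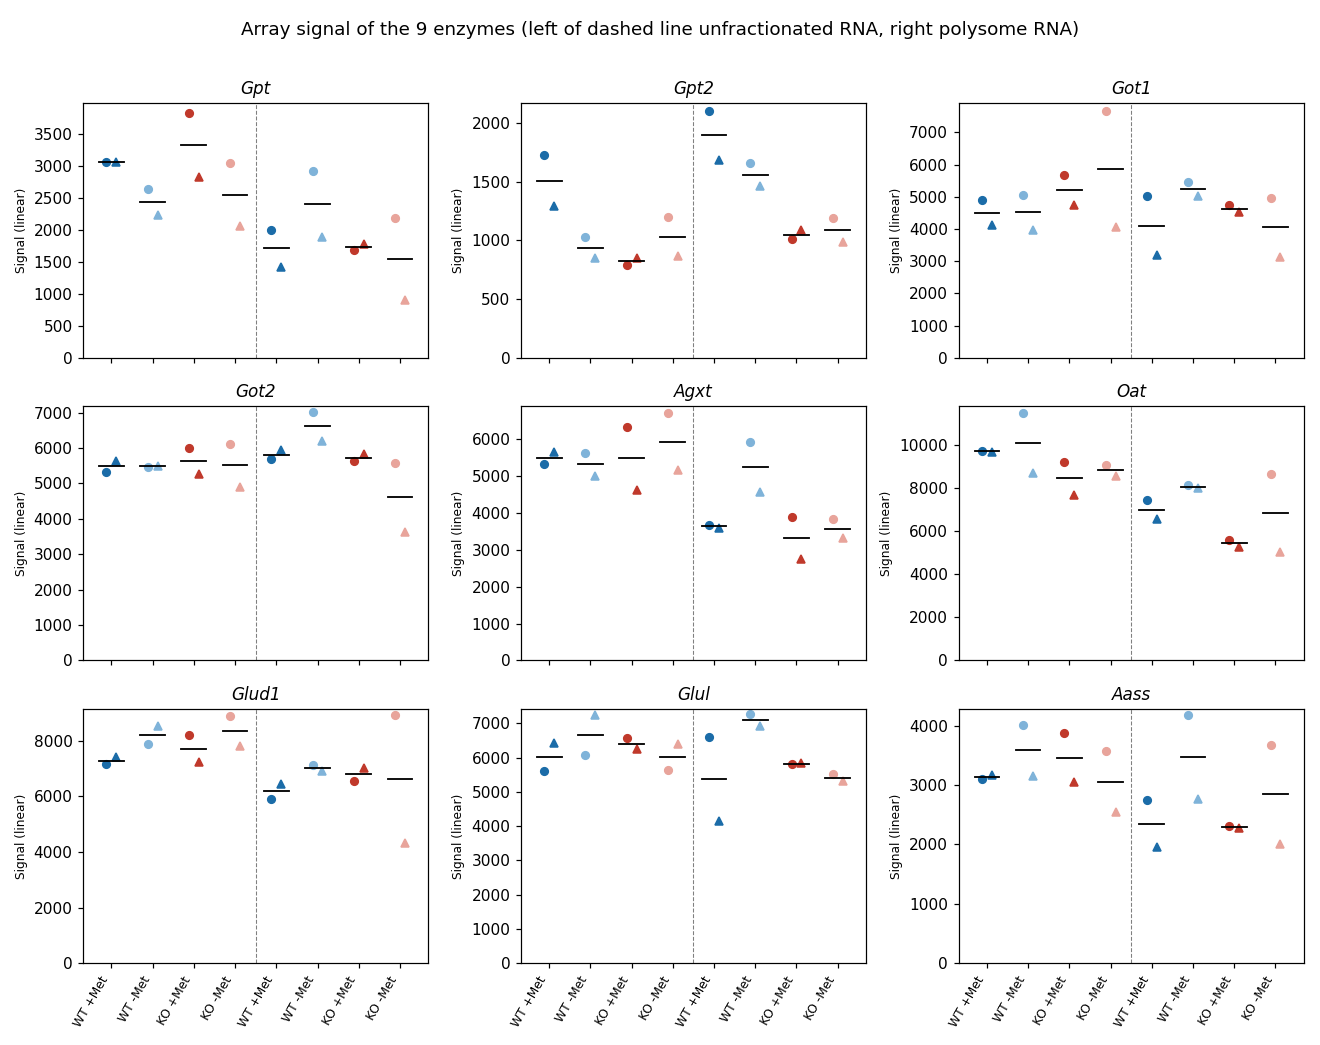
Linear array signal of the 9 enzymes in the 16 arrays, 1 panel per gene with its own axis starting at 0, by genotype, medium and fraction. Circles are replicate 1, triangles replicate 2 and lines the mean of the 2 arrays. Gpt2 is lowest in the knockout +Met unfractionated arrays (793 and 850), and Gpt and Agxt are mostly lower to the right of the dashed line, in polysome RNA.

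Among genes of the neighbouring pathways, on lists chosen with earlier results of these data known, the counts called between genotypes are set against 2.17% lower and 4.2% in either direction over all tested genes. Of 10 other aminotransferases tested, 3 fell in the knockout and none rose, with a median of −0.18 against 0.00 over all tested genes. These were Bcat2, the mitochondrial branched-chain aminotransferase (lower by 0.996 ± 0.148, adjusted p = 0.00072), and the kynurenine aminotransferases Kyat3 (−0.71 ± 0.08, adjusted p = 7.6e-05) and Kyat1 (−0.52 ± 0.10, adjusted p = 0.0064), all by limma. Of 8 enzymes of glutamine, glutamate, proline and asparagine, Asns fell (−3.29 ± 0.14, limma adjusted p = 4.7e-10) and no other was called. Of 8 lysine enzymes tested, Dhtkd1, of the pathway's later mitochondrial part, fell by 1.25 ± 0.21 on the log2 scale (limma adjusted p = 0.0019). Of 5 glyoxylate and serine enzymes, Hoga1, which makes glyoxylate from hydroxyproline breakdown, fell by 0.51 ± 0.11 on the log2 scale (limma adjusted p = 0.013). None of 9 urea cycle genes, 6 malate-aspartate shuttle genes or 10 genes responsive to glucagon or glucocorticoids was called, though 1 of the last list was with quantile normalization. Of 14 amino acid response genes, Asns, Atf5 and Trib3 fell and Chac1 rose. Slc1a2, a glutamate carrier, was the 1 gene called lower of 13 pericentral genes, and Hsd17b13 the 1 of 10 periportal genes.

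Some markers of other liver cells differed between genotypes too, where 4.2% of all tested genes were called. Summed Kupffer cell signals were 2650 to 3065 in wild-type and 1487 to 2112 in knockout unfractionated RNA, and 1169 to 1756 and 908 to 1519 in polysome RNA. The polysome sums thus overlapped. Of the 10 tested of 11 Kupffer markers, 2 were lower in the knockout as deposited and 1 with equal array medians, and Marco was too dim to test. Of 8 stellate cell markers tested, 2 were higher in the knockout as deposited and none with equal array medians, and of 3 blood markers 1 was higher. None of 8 hepatocyte, 7 endothelial, 2 cholangiocyte or 1 muscle markers tested was called. Their part in the Gpt2 difference was not tested.

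Leaving methionine out changed none of the 9 enzymes past the test, in either genotype or fraction. The share of all tested genes called was 0.0641% in wild-type unfractionated RNA, 2.58% in wild-type polysome RNA, 0% in knockout unfractionated RNA and 0.156% in knockout polysome RNA. With unadjusted p under 0.05, limma gave 737, 1820, 624 and 989 of the 10916 genes in that order, and 1, 2, 0 and 0 of the 9 enzymes. With 2 arrays a group the intervals were wide, and that of Gpt in wild-type polysome RNA ran from −0.21 to 1.17.

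Gpt2 in wild-type unfractionated RNA was lower without methionine, with 1027 and 852 against 1725 and 1296. The arrays did not overlap, as was so for 20.3% of tested genes in that direction, and the difference of −0.67 ± 0.20 did not pass (95% interval −1.09 to −0.24, unadjusted p = 0.0042, limma adjusted p = 0.39). In knockout unfractionated RNA Gpt2 had 0.31 (−0.12 to 0.73), with both −Met arrays above both +Met arrays, as for 18.7% of all tested genes. The difference between these effects, knockout minus wild-type, was 0.97 ± 0.28 (95% interval 0.37 to 1.57, unadjusted p = 0.0034) and did not pass either (limma adjusted p = 0.55). In this test of the difference 0.0458% of genes were called, and in the polysome RNA 0.055%. In polysome RNA Gpt2 had −0.27 (−0.69 to 0.15) in the wild-type and 0.05 (−0.38 to 0.47) in the knockout.

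In wild-type polysome RNA the other 8 enzymes all had values above 0, and none passed. As deposited, the 9 had a median of 0.39 against 0.02 over all tested genes, and with array medians made equal the 2 medians were 0.05 and −0.27, with 4 of the 9 below 0. For 7 enzymes both −Met arrays lay above both +Met arrays, as for 24.6% of all tested genes, and for Gpt2 both lay below, as for 22.1%. Agxt had polysome signals of 3683 and 3587 with methionine and 5929 and 4577 without, a difference of 0.52 ± 0.20 (unadjusted p = 0.021, limma adjusted p = 0.20). Glul had 6600 and 4162 with methionine and 7271 and 6926 without, a difference of 0.44 ± 0.18 (limma adjusted p = 0.23). The Glul value rests on the +Met arrays: it was 0.77 without the first (called, adjusted p = 0.022) and 0.10 without the second (adjusted p = 0.88), with the spread of the single array left taken from the other groups. Aass had 2744 and 1960 with methionine and 4175 and 2762 without, a difference of 0.55 ± 0.27 (limma adjusted p = 0.33). In wild-type unfractionated RNA the same enzymes had −0.04 for Agxt, 0.14 for Glul and 0.18 for Aass, and the second Glul probe set, 1426235_a_at, had −0.27 there and 0.46 in polysome RNA, none of them called.

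Cell markers moved with methionine as well, in wild-type polysome RNA and in the other groups. From the +Met to the −Met arrays of wild-type polysome RNA, summed signals went from 79690 to 91287 up to 102566 to 114063 for hepatocytes. They went from 511 to 593 up to 784 to 854 for endothelial cells and from 1178 to 1192 up to 1695 to 1776 for stellate cells. Those of blood went from 1026 to 1059 up to 1322 to 1823, of cholangiocytes from 84.2 to 111 up to 144 to 250 and of skeletal muscle from 73.6 to 105 up to 141 to 186, while those of Kupffer cells overlapped (1169 to 1469 and 1254 to 1756). The median log2 differences were 0.28 over 8 hepatocyte markers tested, 0.81 over 7 endothelial, 0.35 over 8 stellate, 0.20 over 10 Kupffer, 0.72 over 3 blood and 0.97 over 2 cholangiocyte markers, and 1.38 for the 1 muscle marker tested. With equal array medians they were −0.06, 0.57, 0.06, −0.12, 0.54, 0.72 and 1.14. Of these, 1 hepatocyte and 1 stellate marker were called as deposited and none with equal array medians. In wild-type unfractionated RNA the sums also rose without overlap for hepatocytes (93197 to 105523 up to 111341 to 112645), stellate cells, Kupffer cells and cholangiocytes. In knockout unfractionated RNA they did so for Kupffer cells (1487 to 1624 up to 2037 to 2112) and stellate cells. Those of Kupffer and endothelial cells did so in knockout polysome RNA, and the other sums overlapped. The part of the markers in the enzymes' values was not tested.

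In knockout polysome RNA the 9 effects of leaving methionine out had a median of −0.11, and 5 of the 9 were below 0. The genotype difference of the polysome effect, knockout minus wild-type, was below 0 for 7 of 9 both as deposited and with equal array medians, with a median of −0.40 as deposited and none called. Glul had −0.54 (95% interval −1.08 to 0.00) and Got2 −0.53 (−1.06 to 0.01), with limma adjusted p of 0.50 and 0.51. With each array left out Glul ran from −0.87 to −0.21, these being the values without the first and the second wild-type +Met polysome array. Got2 ran from −0.84 to −0.22, these being the values without the first and the second knockout −Met polysome array, and neither enzyme passed in any of these fits. The methionine effect in polysome minus that in unfractionated RNA was above 0 for all 9 enzymes in the wild-type as deposited. Their median was 0.36 against 0.04 over all tested genes. With equal array medians this was so for 6 of 9, with medians of 0.15 and −0.15, and with quantile normalization 1 of 9 was below 0. No gene of the 10916 was called in that comparison by limma, where 679 had an unadjusted p under 0.05. These comparisons share their arrays, so their values are not independent.

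**Figure D3:**
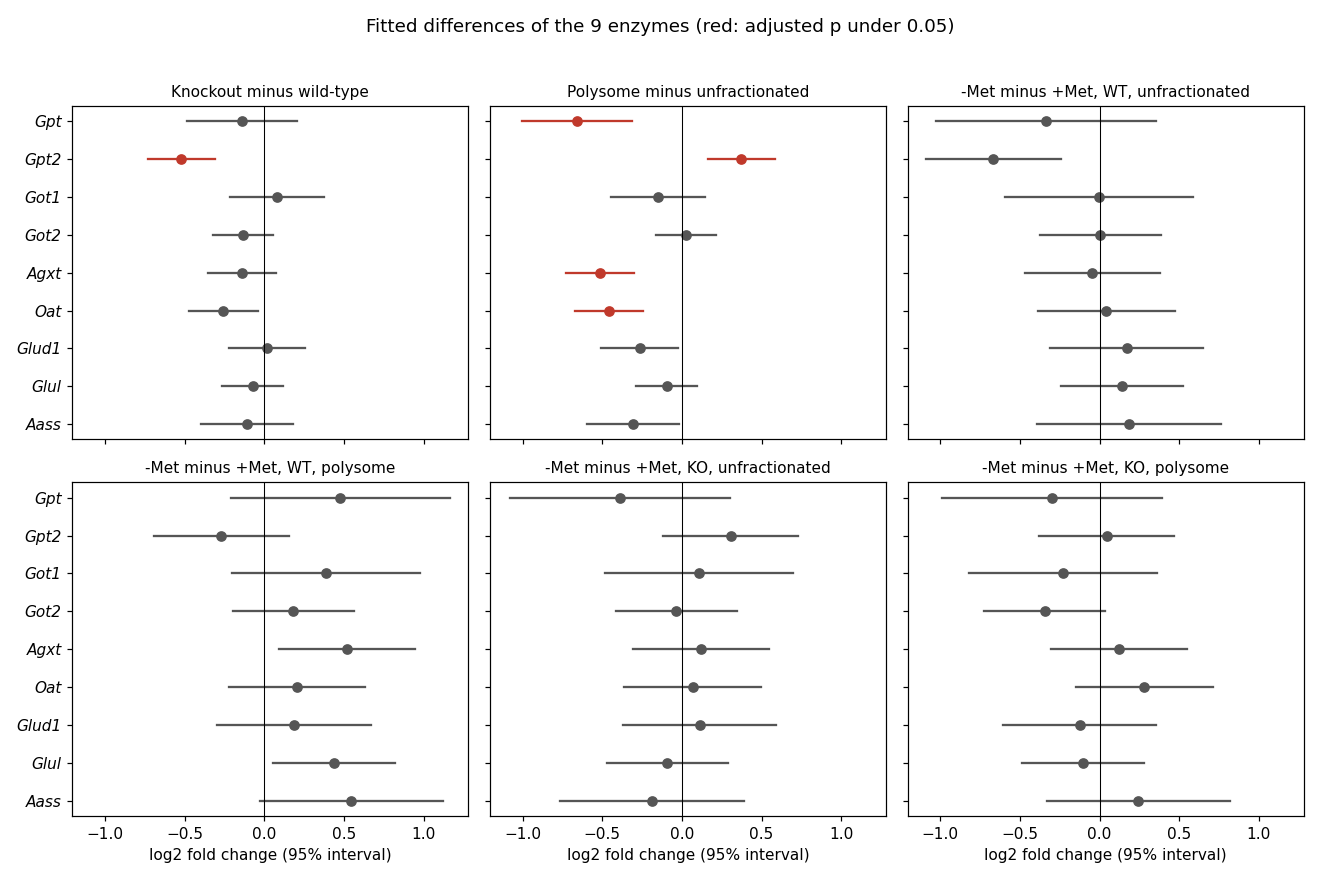
Fitted log2 differences of the 9 enzymes with 95% intervals, for knockout minus wild-type, polysome minus unfractionated and the effect of leaving methionine out in each genotype and fraction. Red marks an adjusted p under 0.05, which 1 enzyme had between genotypes, 4 between fractions and none for methionine. Gpt, Gpt2, Agxt and Oat keep their sign between fractions under both other scalings, while some values that did not pass change sign.

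Between fractions, 3 enzymes were lower in polysome RNA relative to unfractionated RNA and Gpt2 was higher. Agxt fell by 0.51 ± 0.10 on the log2 scale (0.700 times, limma adjusted p = 0.0011), Oat by 0.46 ± 0.10 (0.729 times, adjusted p = 0.0029) and Gpt by 0.66 ± 0.16 (0.632 times, adjusted p = 0.0058). Gpt2 rose by 0.37 ± 0.10 (1.30 times, limma adjusted p = 0.0098). Of all tested genes 31.4% were called, 14.8% as lower and 16.6% as higher, so 4 of 9 is not far from this background. With equal array medians the calls over all genes went from 1813 higher and 1614 lower to 1051 and 1273, and 3 of the 9 were called. As deposited, 7 of the 9 values were below 0 with a median of −0.27, while with quantile normalization 4 of 9 were and the median was 0.08. The 1334 genes at least as bright as the dimmest of the 9 had a median of −0.08, with 58.2% below 0.

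Agxt had unfractionated signals of 5311 and 5646 in wild-type +Met, 5631 and 5004 in wild-type −Met, 6316 and 4630 in knockout +Met and 6699 and 5151 in knockout −Met. Its polysome signals were 3683 and 3587, 5929 and 4577, 3896 and 2750, and 3827 and 3314 in the same order. The polysome array was lower in 7 of 8 pools, with pools taken from equal replicate numbers, which the labels do not state. The exception was the first wild-type −Met pool. The share of all tested genes with 7 of 8, here and for the enzymes below, was not counted. With quantile normalization the Agxt difference was −0.24 and narrowly missed the threshold (limma adjusted p = 0.052).

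Oat had unfractionated signals of 9710 and 9664 in wild-type +Met, 11467 and 8685 in wild-type −Met, 9210 and 7669 in knockout +Met and 9059 and 8563 in knockout −Met. Its polysome signals were 7421 and 6554, 8113 and 7974, 5603 and 5266, and 8631 and 5048 in the same order. Oat was lower in the polysome array of 8 of 8 pools, as were 8.88% of all tested genes, though the single ratios ran from −0.76 to −0.07. With quantile normalization its difference was −0.14 and did not pass (limma adjusted p = 0.35).

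Gpt had unfractionated signals of 3072 and 3063 in wild-type +Met, 2638 and 2235 in wild-type −Met, 3839 and 2822 in knockout +Met and 3043 and 2064 in knockout −Met. Its polysome signals were 1999 and 1427, 2932 and 1897, 1680 and 1783, and 2186 and 901 in the same order. The polysome array was lower in 7 of 8 pools, with single log2 ratios from −1.20 to 0.15. The paralogs of alanine aminotransferase thus had opposite signs in this comparison, Gpt2 being higher in 7 of 8 polysome arrays with ratios from −0.01 to 0.78. With array medians made equal the Gpt2 difference was 0.35 and did not pass (limma adjusted p = 0.086). In the fit of single probe sets, on signals as deposited, 2 of its 4 probe sets were called. The comparisons that follow took their spread from the fit of all 16 arrays. Over the wild-type arrays alone Gpt (−0.45, adjusted p = 0.22), Agxt (−0.31, adjusted p = 0.17) and Oat (−0.39, adjusted p = 0.080) no longer passed in limma. Over the knockout arrays alone Gpt2 did not (0.22, adjusted p = 0.31), and over the −Met arrays alone none of the 4 did, with the same signs and limma adjusted p of 0.082 to 0.26.

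**Figure D4:**
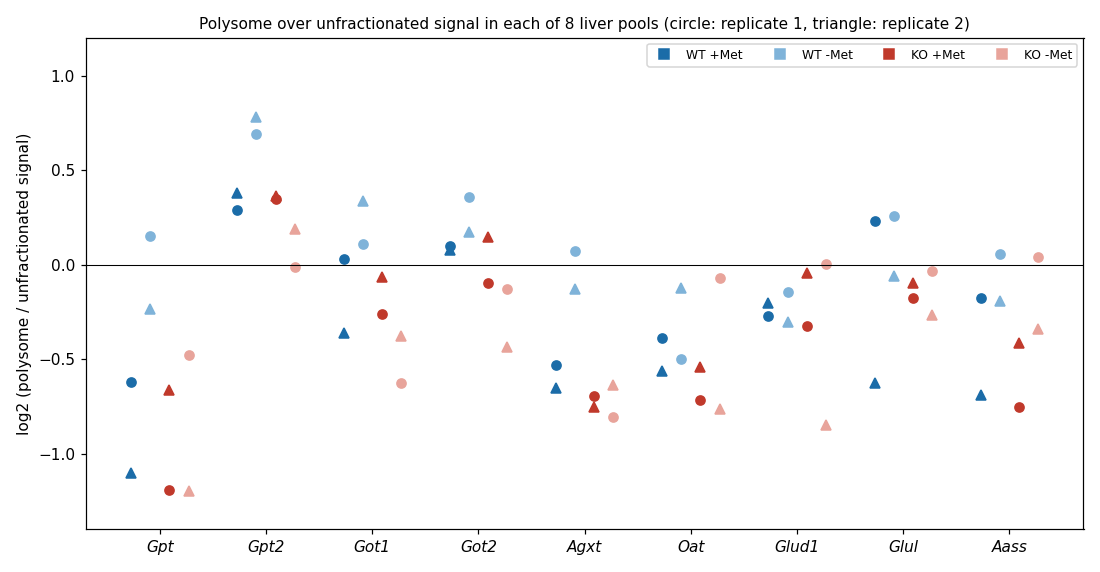
Log2 ratio of polysome over unfractionated signal for each enzyme in the 8 liver pools, taken from equal replicate numbers. Points use signals as deposited, coloured by genotype and medium, with replicate 1 as circles and replicate 2 as triangles. All 8 Oat ratios lie below 0, and 7 of 8 do for Gpt, Agxt and Glud1, while 7 of 8 Gpt2 ratios lie above 0. With quantile normalization the values of Got1, Glud1 and Glul change sign.

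Glud1 had −0.27 ± 0.11 (limma adjusted p = 0.088) and Aass −0.31 ± 0.14 (adjusted p = 0.0999). With the liver pool as a random block both were called, at adjusted p of 0.040 and 0.039. With quantile normalization Glud1 had 0.08, and without the first knockout −Met polysome array it had −0.40 and passed, as did Aass (−0.42). Without the second array of that group they had −0.14 and −0.20 and did not pass. Glud1 had knockout −Met polysome signals of 8928 and 4337, the widest gap between its replicates. Aass had 3679 and 2008 there, against 2303 and 2285 in knockout +Met polysome RNA.

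Got1 had −0.15 and Got2 0.02, neither called. With quantile normalization Got1 had 0.13 and Got2 was called (0.34, limma adjusted p = 0.0092). Got1 had the single highest signal of its 16 in the first knockout −Met unfractionated array (7678), with 4054 in the second, and 4974 and 3119 in their polysome arrays. Got2 had 5587 and 3634 in knockout −Met polysome RNA and 7020 and 6207 in wild-type −Met polysome RNA.

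Glul gave different answers by probe set. The one used for the gene, 1426236_a_at, had −0.10 ± 0.09 in polysome minus unfractionated RNA and did not pass, and 0.23 with quantile normalization. The second, 1426235_a_at, fell by 0.45 ± 0.09 on the log2 scale (adjusted p = 0.00097 in the limma fit of probe sets). The 2 probe sets correlated at 0.445 over the 16 arrays, and with the mean of both the gene was called (−0.27, limma adjusted p = 0.015).

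The polysome minus unfractionated difference was more negative in the knockout for all 9 enzymes as deposited. Their median was −0.30 against −0.04 over all tested genes. With equal array medians this was so for 5 of 9, with medians of −0.17 and 0.08, and with quantile normalization for 9 of 9. As deposited, none of the 9 passed, and 0% of all genes were called by limma, where 1017 had an unadjusted p under 0.05. With the pool as a random block 30 genes were called, none of the 9 among them. Agxt came nearest with −0.41 (95% interval −0.84 to 0.01), and Gpt had −0.43 (−1.12 to 0.26). Gpt2 had −0.31 (−0.73 to 0.11).

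As deposited, the pathway lists had more members called lower than higher in polysome RNA. Over all tested genes 14.8% were called lower and 16.6% higher. The lists share genes, such as Aadat (aminotransferases and lysine) and Cps1 and Ass1 (urea cycle and periportal), so their counts are not independent. Of 10 other aminotransferases tested 5 fell and none rose, led by Aadat, which acts on aminoadipate (−0.59 ± 0.16, adjusted p = 0.0094), and Agxt2, the mitochondrial alanine-glyoxylate aminotransferase (−0.48 ± 0.14, adjusted p = 0.014), by limma. Of 9 urea cycle and ammonia genes 5 fell, among them Cps1, which makes carbamoyl phosphate (−0.60 ± 0.10, limma adjusted p = 0.00036), and Slc25a15, the ornithine carrier, rose (0.48 ± 0.07). Of 6 malate-aspartate shuttle genes 3 fell, both malate dehydrogenases among them (Mdh1 −0.63 ± 0.10, Mdh2 −0.49 ± 0.07), and the carrier Slc25a11 rose (0.49 ± 0.09). Of 8 lysine enzymes 3 fell and 2 rose, and of 10 periportal genes 7 fell and none rose. Medians were −0.20, −0.24, −0.21, −0.20 and −0.33 in this order, against 0.02 over all tested genes. With quantile normalization the medians were −0.03, −0.04, −0.11, −0.15 and −0.11, and the urea cycle list had 1 gene called lower and 1 higher. Kupffer cell markers moved the same way, 9 of 10 being lower in polysome RNA with a median of −0.73, and 2 of 8 hepatocyte, 2 of 7 endothelial and 4 of 8 stellate cell markers fell while 1 hepatocyte marker rose. The part of the cell markers in these differences was not tested.

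Some arrays were low or high for most of the enzymes. The second knockout −Met polysome array was the lowest of the 8 polysome arrays for 6 of the 9 enzymes, with a median deviation of −0.45 on the log2 scale, while all tested genes had −0.01. The first wild-type −Met polysome array was the highest for 6 of 9, with a median deviation of 0.31, while all tested genes had 0.05. In both −Met polysome groups replicate 1 was above replicate 2 for 9 of 9 enzymes. It was above for 8 of 9 in both knockout unfractionated groups and 7 of 9 in wild-type +Met polysome RNA. The count was 6 in wild-type −Met unfractionated RNA, and 4 in wild-type +Met unfractionated and knockout +Met polysome RNA. The shares of all tested genes, or of genes as bright as these, with these traits were not counted. The counts are therefore a description of the arrays and not a result about these enzymes.

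Over the 16 arrays, which share pools and scaling, Gpt and Aass were alike at a Pearson correlation of 0.837, and Agxt and Oat at 0.818. Gpt2 was the least alike member for 7 of the other 8 enzymes and was closest to Got2 at 0.365. With each fraction centred on its own mean it was the least alike for 5 of the 8 and closest to Oat at 0.530. The 3 tested genes most like Gpt2 were Tfcp2 (0.892), Coq9 (0.883) and Trib3 (0.883). Centred in the same way, these 3 had 0.870, 0.850 and 0.943 in this order. Those most like Gpt were Cyp4f14 (0.955), Atp6v1a (0.942) and Apeh (0.940), and those most like Agxt were Car3 (0.953), Pcna (0.945) and Ddx47 (0.941). For Aass they were Aldh1l1, Cbs and Tufm (0.881 to 0.891), and for Glul Gclc, Xrn2 and Ddx46 (0.839 to 0.869). These are the highest of 10916 correlations each and are given as descriptions.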

How the data were processed

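The 16 arrays were read from the deposited value table, which holds the authors' intensity per probe set on a linear scale made with an algorithm that no label or header names. Every array had a trimmed mean (2% off each end) of 150.0, so the table was taken as normalized. Deposited intensities were used unscaled: array medians of 18.3 to 27.7 lie among dim probe sets. Of 45101 probe sets, 34945 had 1 symbol, 932 several, 9160 none, and 64 were controls. The brightest probe set stood for a gene, and the dimmest 40% of genes were not tested. Log2(signal + 16) was fitted with limma 3.58.1 in R 4.3.3 (8 group means, 8 residual degrees of freedom, trended eBayes), tested on simulated data, with Benjamini-Hochberg adjustment per comparison over 11 comparisons. The authors' deposited ratio table was not used, having no replicate error. Precision is limited by 2 arrays a group.

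Members, lists and settings were chosen with earlier results of these data known. The named genes were the 9 members, up to 4 called genes a list with the largest change, and the 3 genes most like each member. Equal replicate numbers in both fractions of a condition were taken as 1 pool, because the 4 pairs' deviations correlated at 0.186 to 0.328, all over 0.1. The other 24 pairs of groups had −0.08 to 0.218, 5 of them over 0.1, and the labels do not state the pools. Alternatives were other scalings, pseudocounts, filters, probe set rules, blocks, subsets of arrays and each array left out. Genotype and fraction comparisons over a single genotype, fraction, medium or setting kept the spread of the fit of all 16 arrays.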

Additional observations from a re-analysis of the deposited data

How the results depend on the processing

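Of the 99 values of the 9 enzymes, 5 were called, and 4 of these kept their direction in every alternative run. The exception was Gpt2 between genotypes, which was 0.12 in unfractionated −Met RNA alone. Its knockout minus wild-type value was −0.59 with equal array medians (limma adjusted p = 0.024) and −0.54 with quantile normalization (adjusted p = 0.0064), and it stayed called with each array left out (−0.58 to −0.46). The number of enzymes called between genotypes was 1, with 0 over the unfractionated arrays, over the −Met arrays and in each of the 4 single settings, 2 across single probe sets, and 1 to 2 with each array left out. Between fractions it was 4, with 1 over the wild-type arrays, 0 over the −Met arrays and 4 to 6 with each array left out. For methionine in wild-type polysome RNA it was 0, and 0 to 1 with each array left out. Without both wild-type −Met polysome arrays, Gpt2 no longer passed between fractions (0.26, adjusted p = 0.12). Of the 94 values not called, 6 were called under some alternative, and 59 changed sign without a call.

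With the liver pool as a random block (consensus correlation 0.238), 6 of 9 enzymes were called between fractions, and with the replicate number as a fixed block 5 were, Aass being called (adjusted p = 0.019); the blocks changed no other call of the 9. Equal array medians shifted the median of all tested genes to −0.27 for methionine in wild-type polysome RNA, −0.13 in wild-type unfractionated RNA, 0.23 for the genotype difference in polysome RNA and −0.15 for the polysome-specific effect in the wild-type. There the calls for methionine in wild-type polysome RNA went from 160 higher and 122 lower to 20 and 226, and those between genotypes from 222 and 237 to 93 and 188. For knockout polysome RNA they went from 13 and 4 to 1 and 0, and for the genotype differences from 3 and 2 to 3 and 0 in unfractionated and from 4 and 2 to 4 and 0 in polysome RNA.

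Counts over all genes ranged widely. Over the alternatives other than leaving out an array, they ran from 0 to 16 around 7 for methionine in wild-type unfractionated RNA, from 64 to 418 around 282 in wild-type polysome RNA and from 1 to 28 around 17 in knockout polysome RNA. They ran from 3 to 10 around 5 and from 1 to 11 around 6 for the genotype differences, from 38 to 684 around 459 between genotypes, from 1060 to 4131 around 3427 between fractions and from 0 to 30 around 0 for the difference between genotypes in the latter. The polysome-specific effect in the knockout had 0 to 1. With each array left out the counts were 0 to 11, 29 to 381, 1 to 16, 0 to 6, 1 to 76, 316 to 480, 2910 to 3371 and 0 to 10 in the same order, 0 to 27 for the polysome-specific effect in the wild-type and 0 to 1 for methionine in knockout unfractionated RNA. For methionine in wild-type polysome RNA the low counts were 29 without the first −Met array of that group, 71 without its second and 46 without the second +Met array, and the 76 for the genotype difference arose without the first wild-type +Met polysome array. The cause of these differences was not tested. How far the signal over background limits the values was not tested.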

Other observations

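In wild-type polysome RNA, where none of the 9 enzymes passed the test for methionine, 5 genes of the neighbouring lists did, 1 in each of 5 lists. Each of these lists had 10 to 14 genes tested, and the remaining lists had none called. Of all tested genes 2.58% were called in this comparison. Without methionine Kyat1, a kynurenine aminotransferase, was higher by 0.86 ± 0.20 on the log2 scale (limma adjusted p = 0.035), and Chac1, an enzyme that cleaves glutathione, by 1.09 ± 0.26 (adjusted p = 0.035). Igfbp1, a secreted binding protein of insulin-like growth factors, was higher by 1.19 ± 0.26 (limma adjusted p = 0.028), the pericentral cytochrome Cyp1a2 by 0.93 ± 0.16 (adjusted p = 0.0071) and the lipid droplet protein Hsd17b13 by 0.70 ± 0.17 (adjusted p = 0.037). All 5 kept their direction with equal array medians, where none passed (limma adjusted p from 0.12 to 0.44), and with quantile normalization, where all passed (adjusted p from 0.014 to 0.031). With equal array medians 1 gene of the glucagon and glucocorticoid list was instead called lower. With quantile normalization that list had 1 gene higher and 1 lower, and Hoga1 of the glyoxylate and serine list was called too (0.86, limma adjusted p = 0.042).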
